A study of Mus musculus with 6 samples.

Results

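The genes described here release calcium in skeletal muscle after excitation, store it in the sarcoplasmic reticulum, pump it back and bind it in the cytosol. They are 10 genes taken as a list from the calcium release and reuptake apparatus of fast muscle: Cacna1s, Cacng1, Ryr1, Jph1, Trdn, Casq1, Casq2, Atp2a1, Atp2a2 and Pvalb. All 10 had an array feature of their own with exactly 1 gene symbol, out of 14860 genes with such a feature, and each had 1 feature only. The samples were tibialis anterior muscles, a mostly fast muscle at the front of the shin, of 3 mice with a muscle-specific knockout of the transcription factor ATF4 (ATF4 mKO) and 3 littermate controls, each on a 1-colour array. All 6 mice were males of 8 weeks, and all had gone without food for 24 h, so no fed state was compared. The Cre driver and the deleted exons are not given in the sources used here, and the muscle also holds vessels, nerve, connective tissue and blood cells, which a muscle-specific knockout leaves intact.

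In a resting fibre the calcium store is kept full by pumps of the sarcoplasmic reticulum and by a binding protein inside it. An action potential that runs down the transverse tubules moves a voltage sensor, which opens the release channel of the facing store membrane, and the released calcium binds troponin and starts contraction. Fast fibres hold more of this apparatus than slow fibres and use other isoforms of the pump and of the store protein. ATF4 is a transcription factor that cells make more of when amino acids run short or proteins misfold. The comparison asked whether the level of these mRNAs depends on muscle ATF4 in the fasted state.

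The values are log2 expression values, so a difference of 1 is a doubling, and they lay between 1.63 and 13 over 16755 features. The knockout was checked first: the Atf4 feature read 6.73, 7.07 and 6.97 in ATF4 mKO mice 1 to 3, against 8.65, 8.76 and 8.76 in control mice 1 to 3. Its log2 fold change was -1.80 ± 0.10 (SE; limma adjusted p = 0.00268), which leaves 28.7% of the control signal. The muscle genes Ckm, Acta1, Mb and Des stood at percentiles 99.2, 99.96, 99.1 and 98.5 of the signal of all features. Myod1, the other measured muscle fibre marker, stood at percentile 69.0, so markers of the labelled tissue were present. Array signal depends on the probes as well as on the mRNA, so mice and groups are compared within a gene. Percentiles give the brightness of a feature among all features and do not compare mRNA amounts between genes. The column medians were 5.84 to 5.91, and the correlations between arrays 0.983 to 0.991.

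None of the 10 genes passed the threshold of an adjusted p under 0.05 over all features, in either direction. Over all 16755 features 2 passed, or 0.0119%, both of them lower and Atf4 itself among them, so few calls were to be had among any 10 genes. All 10 had an adjusted p of 0.9999 in limma, and none had an unadjusted p under 0.05, which 3.09% of all features had. The intervals say how large a change the data still allow: each 95% interval included 0 and lay within ± 0.50 on the log2 scale. Expressed as a share of control, the estimates ran from 94.0% for Trdn to 116% for Casq2, and the bounds of the intervals from 82.1% to 138%. A p that misses the threshold does not show that the groups were alike, and smaller changes than these bounds could not be told apart with 3 mice per group.

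Of the 10 log2 fold changes, 8 were above 0 and 2 below it, with a median of 0.041, against 50.6% above 0 and a median of 0.0013 over all features. Related lists leaned the same way. Above 0 were 38 of 52 other coupling and calcium genes, 5 of 6 fast contractile genes and 4 of 5 muscle fibre markers. Their medians were 0.028, 0.0063 and 0.064. The lean was not particular to coupling or muscle genes. Fibroblast, macrophage and smooth muscle markers each had 5 of 6 above 0, with medians of 0.10, 0.15 and 0.12. Adipocyte and satellite cell markers each had 2 of 6 above 0. Without 1 mouse the median of the 10 ran from 0.030 to 0.070. A single gene, Casq2, had all ATF4 mKO mice above all control mice, which is 10% of the 10 genes, where 7.78% of all features had groups that did not overlap (3.89% in the higher direction).

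**Figure D1:**
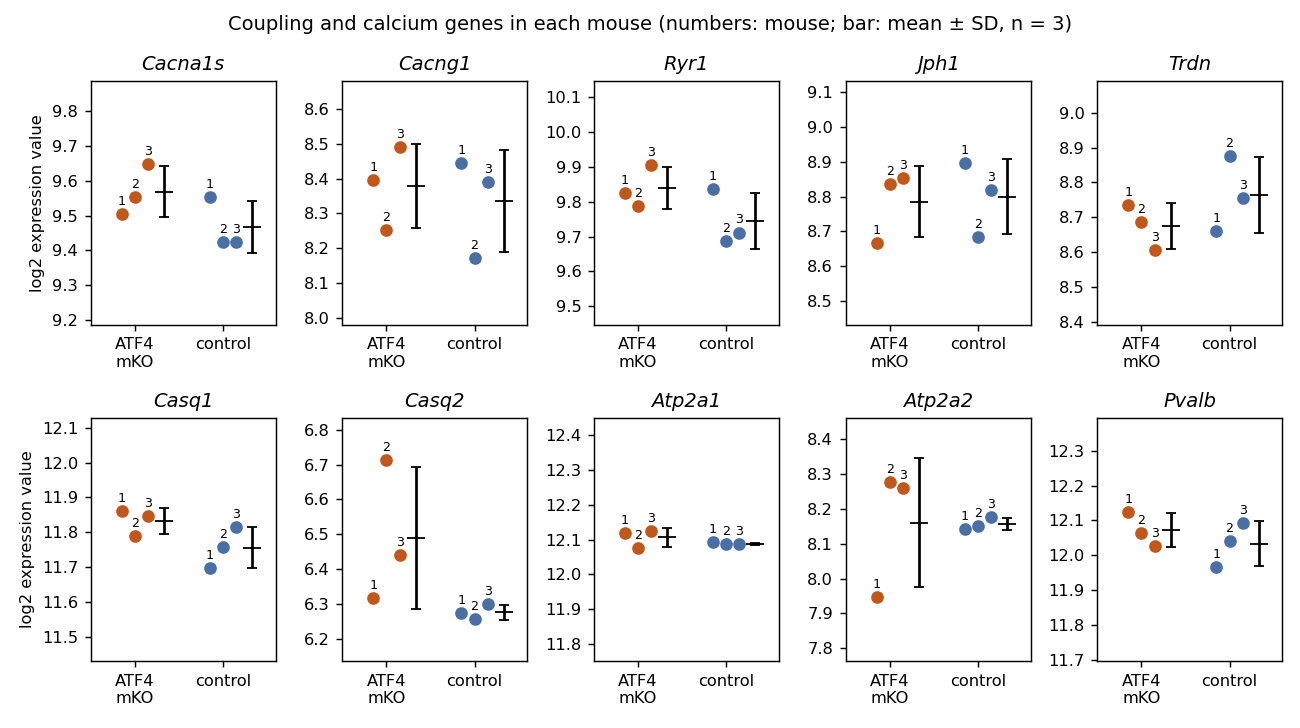
Log2 expression value (y axis, each panel spanning 0.7 units) of the 10 genes in each of 3 ATF4 mKO and 3 control mice; numbers mark the mouse and bars the mean ± SD (n = 3). The groups overlap in 9 panels, and Casq2 is the panel in which every ATF4 mKO mouse, from 6.32 to 6.71, lies above the controls, from 6.26 to 6.30.

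The voltage sensor and the release channel had slightly higher means in ATF4 mKO muscle, within the spread between mice. Cacna1s, the pore subunit of the L-type calcium channel that serves as voltage sensor, read 9.50, 9.55 and 9.65 in ATF4 mKO mice 1 to 3, against 9.55, 9.42 and 9.42 in control mice 1 to 3. Control mouse 1 reached the middle of the ATF4 mKO values and the other 2 controls lay below all of them. The log2 fold change of Cacna1s was 0.10 ± 0.08 (SE; 95% interval -0.08 to 0.29), or 107% of control. Ryr1, the calcium release channel of the sarcoplasmic reticulum, read 9.82, 9.79 and 9.91 in ATF4 mKO mice 1 to 3, against 9.84, 9.69 and 9.71 in control mice 1 to 3. Its pattern was the same as that of Cacna1s in that ATF4 mKO mouse 3 was highest, control mouse 1 came next and control mice 2 and 3 were lowest. Its log2 fold change was 0.094 ± 0.08 (SE; -0.09 to 0.28), or 107% of control.

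Cacng1, the gamma subunit of the same L-type channel in skeletal muscle, varied more between mice of a group than between the groups. It read 8.39, 8.25 and 8.49 in ATF4 mKO mice 1 to 3, against 8.45, 8.17 and 8.39 in control mice 1 to 3. Both groups covered nearly the same range, with mouse 2 lowest in each. The log2 fold change was 0.043 ± 0.10 (SE; -0.20 to 0.28), and its sign turned without control mouse 2, with -0.040, and without ATF4 mKO mouse 3, with -0.013.

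Jph1 and Trdn, which hold the junction between tubule and store together, had log2 fold changes below 0. Of 10 other measured genes of the release channel and the junction, 7 were above 0 and 3 below. They ran from -0.14 for Ryr3 to 0.18 for Jsrp1. Jph1 encodes junctophilin 1, which ties the store membrane to the transverse tubule. It read 8.67, 8.84 and 8.85 in ATF4 mKO mice 1 to 3, against 8.90, 8.68 and 8.82 in control mice 1 to 3. The groups overlapped fully, with 1 low mouse in each, and the log2 fold change was -0.014 ± 0.09 (SE; -0.22 to 0.20). Trdn encodes triadin, which links calsequestrin to the release channel. It read 8.74, 8.69 and 8.61 in ATF4 mKO mice 1 to 3, against 8.66, 8.88 and 8.76 in control mice 1 to 3. Trdn ran opposite to Ryr1 at both ends: the mouse with the highest Ryr1 value, ATF4 mKO mouse 3, had the lowest Trdn value, and the mouse with the lowest Ryr1 value, control mouse 2, had the highest. The log2 fold change of Trdn was -0.089 ± 0.08 (SE; -0.29 to 0.11), or 94.0% of control, and it stayed below 0 without any 1 mouse, from -0.14 to -0.032.

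**Figure D2:**
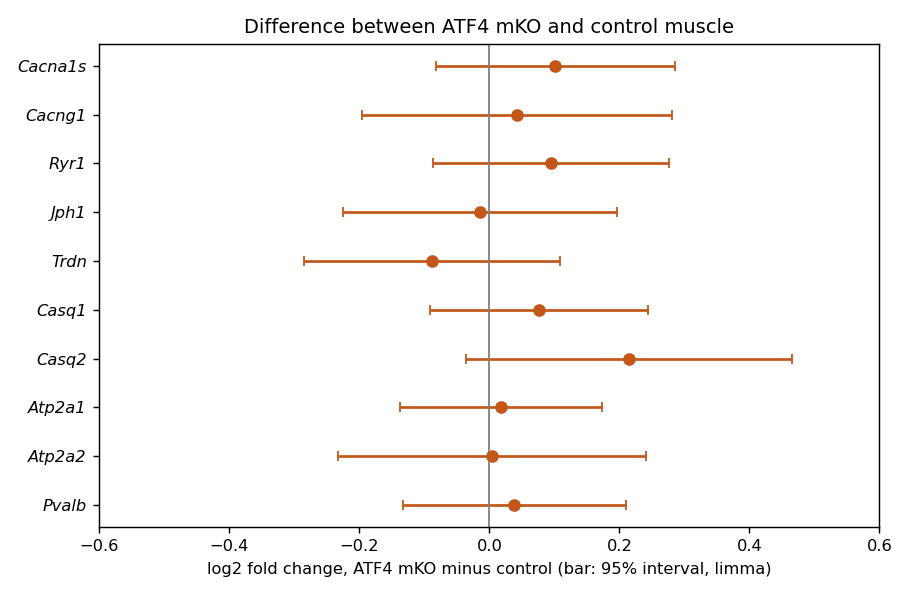
Log2 fold change, ATF4 mKO minus control (x axis), of the 10 genes (y axis, by role from voltage sensor to cytosolic buffer); points are limma estimates and bars 95% intervals, 3 mice per group. All 10 intervals cross 0, and the point farthest from 0 is Casq2 at 0.21.

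The calsequestrins bind calcium inside the store. Casq1 is the isoform of fast skeletal muscle, and Casq2 is the isoform of heart and slow fibres. Casq1 read 11.86, 11.79 and 11.85 in ATF4 mKO mice 1 to 3, against 11.70, 11.76 and 11.82 in control mice 1 to 3. Control mouse 3 lay among the ATF4 mKO mice and the other controls below them, and the log2 fold change was 0.077 ± 0.07 (SE; -0.09 to 0.24), or 105% of control. Casq2 read 6.32, 6.71 and 6.44 in ATF4 mKO mice 1 to 3, against 6.27, 6.26 and 6.30 in control mice 1 to 3. The groups did not overlap, but the gap between them was small and ATF4 mKO mouse 2 stood well above the rest. Casq2 stood at percentile 65.5 of the signal of all features, whereas the other 9 genes were in the top 10%. The log2 fold change of Casq2 was 0.21 ± 0.11 (SE; -0.04 to 0.47), or 116% of control with an interval of 97.5% to 138%, at an unadjusted p of 0.0835 and an adjusted p of 0.9999 in limma. Without ATF4 mKO mouse 2 it was 0.10, and without ATF4 mKO mouse 1 it was 0.30.

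Markers of smooth muscle mostly had values on the same side as Casq2, though none passed the threshold. Of 6 smooth muscle genes 5 had values above control, and in 4 of them (Myh11, Cnn1, Lmod1 and Smtn) every ATF4 mKO mouse lay above every control, which 3.89% of all features showed. The order of the mice mostly differed from that of Casq2, which was highest in ATF4 mKO mouse 2. Of these 4 genes only Smtn was highest in that mouse. Cnn1 was highest in ATF4 mKO mouse 1, and Myh11 and Lmod1 in ATF4 mKO mouse 3. The summed linear signal of the 6 overlapped between the groups, with 655 to 696 in ATF4 mKO muscle against 561 to 667 in control muscle. The dimmest marker was Lmod1, at percentile 39.8 of the signal of all features and with a lowest value of 5.18; the other 5 were above the median signal. Macrophage and fibroblast markers likewise had 5 of 6 values above control, so a value above control was not particular to smooth muscle. Groups that did not overlap were fewer there, with 1 of 6 macrophage and 0 of 6 fibroblast markers. Among 7 endothelial markers there were 2, and among 2 erythroid markers 1, all higher. Among 6 satellite cell markers there was 1, lower. The part of these cell types in the Casq2 value was not tested. In bulk muscle, more cells of a type and more RNA per cell cannot be told apart.

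Promoter windows from RefSeq (build GRCm38.p6, 250 bases before to 50 after a start site) were at hand for 6 of the 10 genes. The windows of both calsequestrins are shown because they are the isoform pair in which one gene had groups that did not overlap. Capitals mark a match to the site of MEF2, a transcription factor of muscle genes. The Casq1 window lies at chr1:172219846-172220145 on the minus strand and the Casq2 window at chr3:102086165-102086464 on the plus strand.
Casq1: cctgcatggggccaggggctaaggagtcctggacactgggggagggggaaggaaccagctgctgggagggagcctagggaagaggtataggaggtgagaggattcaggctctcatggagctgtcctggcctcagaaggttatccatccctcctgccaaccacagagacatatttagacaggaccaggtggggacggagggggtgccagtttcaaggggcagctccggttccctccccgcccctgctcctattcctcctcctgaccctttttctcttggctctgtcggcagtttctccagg
Casq2: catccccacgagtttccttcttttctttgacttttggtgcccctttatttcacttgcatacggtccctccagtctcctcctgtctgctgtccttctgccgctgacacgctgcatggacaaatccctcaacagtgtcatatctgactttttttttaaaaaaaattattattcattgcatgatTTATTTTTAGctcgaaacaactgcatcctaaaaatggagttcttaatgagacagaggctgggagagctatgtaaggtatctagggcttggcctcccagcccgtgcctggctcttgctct
The Casq2 window held 1 MEF2 match, which began 69 bases before the start site, and the Casq1 window held none. Over all 32851 windows of this length in the table, 3.19% held a MEF2 match on either strand. The motif TGATGNAA, a form of the C/EBP-ATF response element that ATF4 binds with its partners, was found in none of the 7 windows of the 6 genes, while 3.97% of all windows held it on either strand. The E-box CANNTG, the motif of MyoD family factors, was in 5 of the 7 windows and in 72.3% of all windows. No match says only that these letters are not in this window.

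The pumps of the sarcoplasmic reticulum return calcium to the store. Atp2a1, the pump SERCA1 of fast fibres, read 12.12, 12.08 and 12.12 in ATF4 mKO mice 1 to 3, against 12.09, 12.09 and 12.09 in control mice 1 to 3. Its 6 values spanned 0.049, the narrowest range of the 10 genes. The log2 fold change of Atp2a1 was 0.018 ± 0.07 (SE; -0.14 to 0.17), or 101% of control with an interval of 90.9% to 113%. Atp2a2 encodes SERCA2, the pump of slow fibres, heart and non-muscle cells. It read 7.95, 8.28 and 8.26 in ATF4 mKO mice 1 to 3, against 8.14, 8.15 and 8.18 in control mice 1 to 3. The controls were within 0.034 of each other and lay between the low ATF4 mKO mouse 1 and the other 2 ATF4 mKO mice. The log2 fold change was 0.0036 ± 0.10 (SE; -0.23 to 0.24), a mean of values that lay on both sides of the controls: without ATF4 mKO mouse 1 it was 0.11, and without ATF4 mKO mouse 2 it was -0.055.

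Pvalb encodes parvalbumin, the cytosolic calcium buffer of fast fibres, which takes up calcium early in relaxation. It read 12.12, 12.06 and 12.03 in ATF4 mKO mice 1 to 3, against 11.97, 12.04 and 12.09 in control mice 1 to 3. The groups overlapped, and the log2 fold change was 0.038 ± 0.07 (SE; -0.13 to 0.21), or 103% of control. Without control mouse 1 it was 0.0048. Atp2a1, Pvalb and Casq1 all stood above percentile 99.9 of the signal of all features, near the highest value of 13, and whether their probes were saturated was not tested. The second member with a MEF2 match was Pvalb, and the window that holds it is shown for comparison with that of Casq2. It lies at chr15:78206351-78206650 on the minus strand, and the match begins 180 bases before the start site.
Pvalb: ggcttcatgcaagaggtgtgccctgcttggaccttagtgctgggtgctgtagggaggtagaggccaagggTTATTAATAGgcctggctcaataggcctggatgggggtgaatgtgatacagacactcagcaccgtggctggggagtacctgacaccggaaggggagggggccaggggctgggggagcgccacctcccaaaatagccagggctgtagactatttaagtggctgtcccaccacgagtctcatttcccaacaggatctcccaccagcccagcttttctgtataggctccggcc
A second Pvalb start site in the table, with its window at chr15:78204188-78204487, held no MEF2 match.

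ATF4 mKO mouse 1 had the lowest value of Atp2a2, and it was also the lowest of the 6 mice for 3 contractile genes of slow fibres, chosen here after their values were seen. Tnnc1, the troponin C of slow fibres and heart, read 8.45, 9.68 and 9.47 in ATF4 mKO mice 1 to 3, against 9.38, 9.76 and 9.46 in control mice 1 to 3. Tnni1, the slow troponin I, read 5.98, 6.47 and 6.64 in ATF4 mKO mice 1 to 3, against 6.22, 6.16 and 6.49 in control mice 1 to 3. Myl2, a regulatory myosin light chain of slow fibres and heart, read 10.12, 10.48 and 10.36 in ATF4 mKO mice 1 to 3, against 10.17, 10.54 and 10.33 in control mice 1 to 3. The low reading of ATF4 mKO mouse 1 was largest for Tnnc1, at 0.92 below the mean of the 6 mice, and was 0.34 for Tnni1, 0.22 for Myl2 and 0.21 for Atp2a2. Casq2 did not share it to that degree, since ATF4 mKO mouse 1 was 0.068 below the mean and above all controls. Mybpc1, the other measured gene of the slow fibre list, did not share it either, with 0.0070 above the mean. It stood at percentile 99.8 of the signal of all features, and whether it marks slow fibres in this muscle was not tested. The fast isoforms Atp2a1, Casq1 and Pvalb did not share the low reading: in the same mouse they were 0.021, 0.068 and 0.071 above the mean. The low reading was not particular to slow isoforms, however. Jph1 was also lowest in ATF4 mKO mouse 1, at 0.125 below the mean, and so were Jph2 and Ryr3, relatives of Jph1 and Ryr1. For Myl2, control mouse 1 was nearly as low, at 0.165 below the mean. The part of fibre makeup in these values was not tested.

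**Figure D3:**
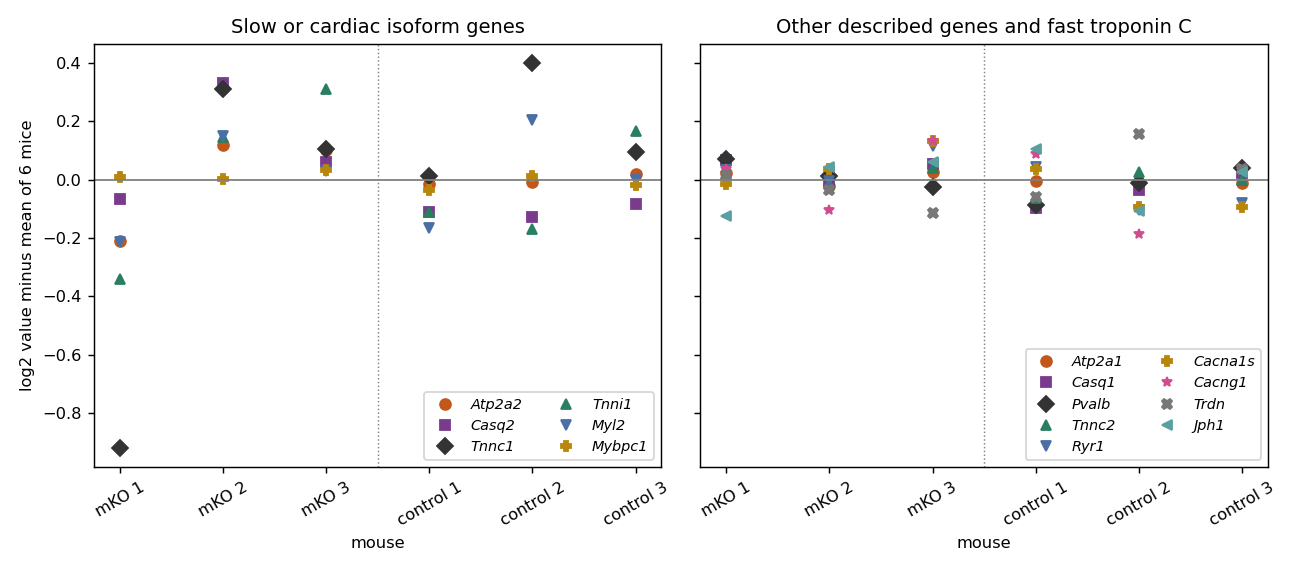
Log2 value minus the mean of the 6 mice (y axis) in each mouse (x axis) for 6 slow or cardiac isoform genes (left) and for the other 8 described genes with fast troponin C (right); 1 point per gene and mouse. On the left ATF4 mKO mouse 1 is lowest for Tnnc1, Tnni1, Myl2 and Atp2a2, down to -0.92, but not for Casq2 and Mybpc1; on the right the points run from -0.19 to 0.16.

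The spread between mice differed among the 10 genes. The range over the 6 mice was under 0.30 in 7 of them and largest for Casq2, at 0.46, then Atp2a2, at 0.33, and Cacng1, at 0.32. The ATF4 mKO range was wider than the control range in 4 genes (Cacna1s, Casq2, Atp2a1 and Atp2a2) and narrower in 6. For Casq2 the range was 0.40 in ATF4 mKO against 0.044 in control muscle, and for Atp2a2 it was 0.33 against 0.034. With 3 mice per group no test of these ranges was made. ATF4 mKO mouse 3 had the highest value of 4 of the 10 genes, and control mouse 2 had the lowest of 3 and lay below the mean in 9.

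To compare an isoform with its paralogue in the same muscle, the difference of their log2 values was taken in each mouse. Its size depends on the probes of both features, and only its change between the groups was tested. Casq1 minus Casq2 was 5.55, 5.08 and 5.40 in ATF4 mKO mice 1 to 3, against 5.42, 5.50 and 5.52 in control mice 1 to 3. The groups differed by -0.14 ± 0.14 (SE, n = 3), with a two-sided exact permutation p of 0.60. Atp2a1 minus Atp2a2 was 4.17, 3.80 and 3.87 in ATF4 mKO mice 1 to 3, against 3.95, 3.93 and 3.91 in control mice 1 to 3. The difference between the groups was 0.014 ± 0.12 (SE, n = 3), with an exact permutation p of 1.0. Jph1 minus Jph2, the second being the isoform that the heart also uses, differed by -0.033 ± 0.11 (SE, n = 3; exact permutation p = 0.80). Ryr1 minus Ryr3, a release channel with little expression in adult fast fibres, differed by 0.24 ± 0.18 (SE, n = 3; exact permutation p = 0.30). Over the 4 pairs all adjusted p-values were 1.0, and 3 against 3 mice cannot give an exact p under 0.10.

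Other genes of coupling and calcium handling were taken as 9 lists, of which 52 of 69 genes had a feature of their own. None of the 52 passed the threshold in either direction, and none had an unadjusted p under 0.05 in limma. Their median log2 fold change was 0.028, and 38 were above 0 and 14 below, or 73.1% above. In 2 of the 52, or 3.85%, the groups did not overlap, both higher, against the 7.78% of all features given above. These were Atp2b4, a calcium pump of the surface membrane, and Camk2b, a subunit of calmodulin-dependent kinase. Atp2b4 read 6.05, 5.92 and 5.999 in ATF4 mKO mice 1 to 3, against 5.91, 5.88 and 5.62 in control mice 1 to 3, with a log2 fold change of 0.19 ± 0.10 (SE). Its unadjusted p of 0.0901 was the smallest of the 52, and without control mouse 3 the value was 0.098. Camk2b read 7.46, 7.48 and 7.48 in ATF4 mKO mice 1 to 3, against 7.44, 7.36 and 7.36 in control mice 1 to 3, with a log2 fold change of 0.088 ± 0.07 (SE).

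Among 5 measured partners of the voltage sensor and surface channels of excitability, 3 were above 0 and 2 below, with a median of 0.0087. Clcn1, the chloride channel that sets the resting excitability of fibres, had 0.18 ± 0.11 (SE), and Stac3, an adaptor that couples the sensor to the release channel, had -0.082 ± 0.07 (SE). Of 10 partners of the release channel and the junction, 7 were above 0 and 3 below, with a median of 0.031. Jsrp1, a junctional protein of the store membrane, read 7.92, 7.83 and 7.67 in ATF4 mKO mice 1 to 3, against 7.55, 7.75 and 7.59 in control mice 1 to 3. Only ATF4 mKO mouse 3 and control mouse 2 crossed, and the log2 fold change was 0.18 ± 0.10 (SE; -0.04 to 0.40). Ryr3 had -0.14 ± 0.12 (SE) at percentile 33.2 of the signal, below the median of all features, where changes can be compressed, and -0.040 without ATF4 mKO mouse 1.

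The pump regulators sarcolipin (Sln) and phospholamban (Pln), small membrane proteins that inhibit the pumps, had 0.017 ± 0.10 (SE) and -0.076 ± 0.13 (SE). Sln lay below the median signal, at percentile 38.5. Among 4 calcium sensors and buffers, Tnnc1 had -0.34 ± 0.30 (SE), which became 0.039 without ATF4 mKO mouse 1, and Tnnc2, the fast isoform, had 0.027 ± 0.07 (SE). Of 5 genes of store-operated entry 4 were above 0, with a median of 0.017. Stim1, the calcium sensor of the store membrane, had 0.12 ± 0.10 (SE), and Orai2, a pore subunit, had -0.091 ± 0.09 (SE) at percentile 6.95 of the signal. Without control mouse 3 these values were 0.035 for Stim1 and -0.020 for Orai2.

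Of 6 genes for calcium removal across the surface membrane 5 were above 0, with a median of 0.048, and Atp2b2, a relative of Atp2b4, had 0.12 ± 0.10 (SE). The 3 measured genes of mitochondrial calcium uptake had a median of 0.034. Among them Smdt1, a small subunit of the uniporter, had 0.078 ± 0.08 (SE) and Micu2, a gatekeeper of it, had 0.034 ± 0.08 (SE). Of 5 genes of the tubule membrane 4 were above 0, with a median of 0.073. Bin1, which shapes the tubules, had 0.11 ± 0.08 (SE), and Cav3, the muscle caveolin, had 0.097 ± 0.08 (SE). Of 12 calcium signalling genes 11 were above 0, with a median of 0.041 and values from -0.057 for Ppp3cb, a catalytic subunit of calcineurin, to 0.12 for Nfatc2, a transcription factor that calcineurin activates.

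**Figure D4:**
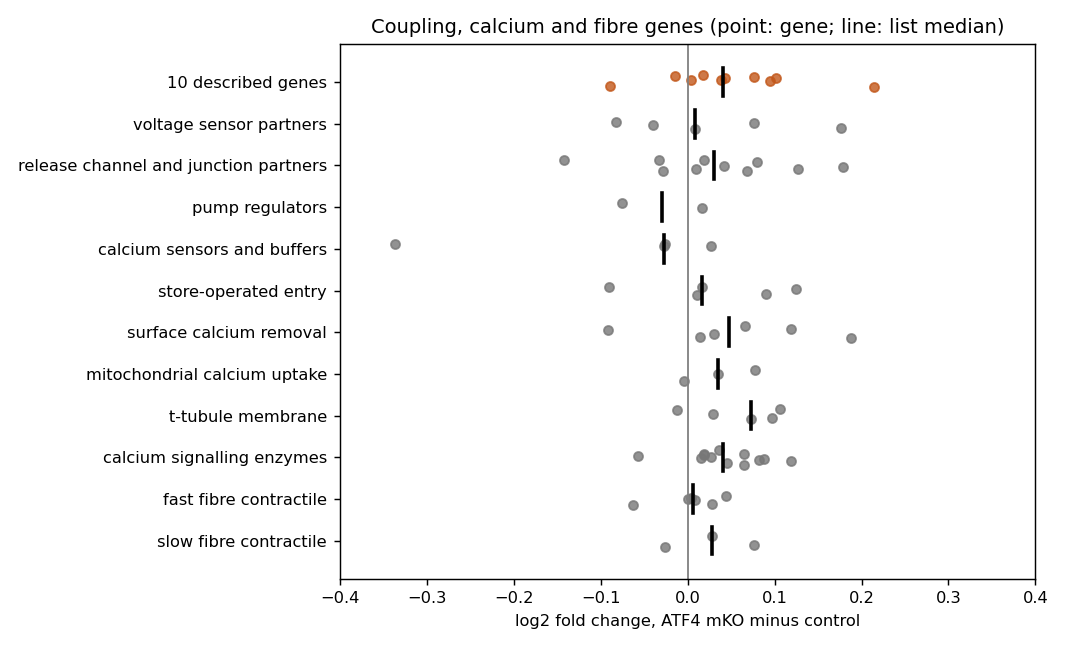
Log2 fold change, ATF4 mKO minus control (x axis), of the 10 genes and of 11 further lists of coupling, calcium and fibre genes (y axis); each point is a gene and each black line a list median. List medians lie between -0.029 and 0.073, and the point farthest from 0 is Tnnc1 at -0.34.

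Contractile genes gave the background of fibre type. The 6 measured fast genes had a median of 0.0063 and ran from -0.062 for Mylpf, a fast regulatory light chain, to 0.044 for Mybpc2, the fast myosin-binding protein C. The slow fibre list had 3 measured genes, with a median of 0.028, which ran from -0.026 for Myl2 to 0.076 for Tnni1, with Mybpc1, the slow myosin-binding protein C, at 0.028. Tnnc1, counted above among the calcium sensors, lay outside this range at -0.34. The adult myosin heavy chain genes share features and were not analysed here.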

How the data were processed

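Expression was measured on 1-colour arrays from tibialis anterior RNA of 3 ATF4 mKO and 3 control mice. The deposited table holds log2 values, a scale read from the values. GCOS, RMA and the mouse build mm9 are named, per the submitters' processing notes; versions and feature annotation were not named there. The method subtracts background, applies quantile normalisation and summarises probes, which compresses differences of dim features. Scanner files were not used here.

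Features were named from the platform annotation, updated through the Entrez identifier: of 16755, 14996 had 1 symbol, 1019 several and 740 none. Each gene is given by its single-symbol feature of highest mean. ATF4 mKO was compared with control by limma 3.58.1 (R 4.3.3; lmFit, eBayes, group as the only term) over all features, with Benjamini-Hochberg adjustment and a threshold of 0.05; the fit was tested on simulated data. Intervals are at 95%. Paralogue differences had exact permutation tests. The number of arrays limits the precision. The 10 genes and all lists were chosen with earlier results of these data known. Besides the 10 genes and Atf4, the rule named the 2 genes of smallest p in each pathway list. There were 11 further pathway lists and 9 lists of cell type markers. Alternatives were a replicate block, median centring, quantile normalisation, leaving out the 50% of features with the lowest mean, features of 1 symbol, trend with robust moderation, no moderation, averaged features of a gene, and leaving out each mouse. Nothing in the sources states that mice of the same number are pairs, so the numbers were not taken as pairs. Deviations of mice of the same number had correlations of -0.002, 0.069 and 0.136. With 3 mice per group these cannot decide whether the mice were paired. Smooth muscle and slow fibre genes outside the rule were named after their values were seen, and so were Tie1, Ppp3cb, Slc4a1 and Alas2. Jph2 was named as part of a paralogue pair.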

Additional observations from a re-analysis of the deposited data

How the results depend on the processing

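None of the 10 genes passed the threshold under any of the 14 alternatives, the lowest adjusted p in limma being 0.998, and 7 of them kept their direction throughout. With the replicate number as a block the number of features called over all features was 1 in place of 2, the 10 genes still had 0 calls and their median stayed at 0.041. The number of features called was 1 with median centring, 7 without the 50% of features with the lowest mean, 4 with features of 1 symbol, 7 with trend and robust moderation, 0 in limma with no variance moderation, where 632 had an unadjusted p under 0.05, and 1 without each mouse (range 1 to 1). Atf4 had -1.80 with an adjusted p of 0.192 without variance moderation. The median of the 10 genes lay between 0.030 (control mouse 2 left out) and 0.070 (ATF4 mKO mouse 2 left out). Signs turned for Atp2a2 with median centring (-0.0031). Without 1 mouse the values ran from -0.055 to 0.11 for Atp2a2, -0.040 to 0.11 for Cacng1, -0.072 to 0.045 for Jph1, -0.58 to 0.039 for Tnnc1, -0.084 to 0.070 for Sln, -0.17 to 0.070 for Pln, -0.0095 to 0.074 for Micu2, -0.11 to 0.0058 for Mylpf and -0.060 to 0.27 for Tnni1. The paralogue differences ran from -0.24 to -0.0049 for the calsequestrins from -0.099 to 0.088 for the pumps, from -0.12 to 0.029 for Jph1 minus Jph2 and from 0.12 to 0.36 for Ryr1 minus Ryr3. The cause of these changes was not tested. Dim features such as Ryr3, Sln and Orai2 limit what could be seen for them.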

Other observations

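The 9 lists of cell type markers had no member past the threshold in limma. Median log2 fold changes were 0.12 for smooth muscle (6 genes), 0.15 for macrophages (6), 0.10 for fibroblasts (6), 0.073 for endothelium (7), 0.26 for erythroid cells (2, Slc4a1 and Alas2, which had 0.15 and -0.16 without control mouse 3), 0.064 for muscle fibres (5), -0.0074 for Schwann cells (4), -0.052 for satellite cells (6) and -0.064 for adipocytes (6). At an unadjusted p under 0.05 were Cnn1, a smooth muscle regulator of contraction, with 0.35 ± 0.11 (SE), Lmod1, a smooth muscle actin nucleator, with 0.47 ± 0.15 (SE), and the endothelial receptor gene Tie1 with 0.17 ± 0.07 (SE). Lmod1 read 5.47, 5.80 and 6.08 in ATF4 mKO mice 1 to 3, against 5.39, 5.18 and 5.36 in control mice 1 to 3.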
